A study of Homo sapiens with 8 samples.

Results

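Fatty acids are built in the cytosol from acetyl-CoA, and the 10 genes described here cover that route and the step that follows it. ACACA encodes acetyl-CoA carboxylase 1, which makes malonyl-CoA, and FASN encodes fatty acid synthase, which joins malonyl-CoA units into palmitate. ELOVL6 and ELOVL1 encode elongases that lengthen saturated and monounsaturated acyl chains, and SCD encodes stearoyl-CoA desaturase, which puts a double bond into them. ACSL1, ACSL3, ACSL4 and ACSL5 encode long-chain acyl-CoA synthetases, which attach coenzyme A to free fatty acids so that these can enter lipids or be oxidised. SREBF1 encodes the sterol regulatory element-binding protein SREBP-1, a transcription factor that switches on most of these enzymes. Pancreatic ductal adenocarcinoma cells both make fatty acids and take them up.

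The libraries report H3K27ac, a histone acetylation typical of promoters and enhancers in use, by ChIP-seq in clones of the established human pancreatic ductal adenocarcinoma line CFPAC1. A peak, meaning a region where the authors found the mark enriched, was taken for a gene if the authors named that gene's transcription start site in it, if the gene's start site was its nearest named one within 50 kb, or if it overlapped the gene on GRCh38. This gave 38 of the 31961 peaks, and each of the 10 genes had at least 1. Named start sites brought in 4 peaks, 18 had a member's start within 50 kb, and 16 were taken for overlap alone. These links rest on position and say nothing of which gene a peak regulates.

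IRF1-guide clones 11 and 13 had received the lentiCRISPRv2 plasmid with Cas9 and a guide against IRF1, a transcription factor of interferon signalling. Control clones 1 and 4 had received the lentiCRISPRv2 plasmid with no guide named. Each clone gave a library taken 2 hours after hIFNb (taken to be human interferon beta) and an untreated one, so there were 8 libraries in 4 groups of 2. Every clone is a single line isolated by dilution and grown in IMDM with fetal bovine serum, and the labels do not say whether the IRF1 protein is absent. All values are scores, the authors' normalised peak counts rounded to whole numbers, and their sums per library ran from 3277561 to 3460390.

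The labelled cell type and treatment were checked at marker genes. Start sites of 7 of 9 placed ductal epithelial markers lay in a peak, among them KRT8, KRT18 and SOX9 with mean scores of 481, 451 and 245, while those of CDH1 and GATA6 and of all 4 immune markers did not. PECAM1 of the endothelial list (mean 237), COL1A1 of the fibroblast list (mean 62.9) and 2 of 5 acinar and endocrine markers, CPA1 (mean 814.5) and CELA3A (mean 5341), also lay in peaks. With hIFNb, averaged over all clones, log2 scores rose by 1.13 ± 0.14 at ISG15, 1.34 ± 0.16 at IRF9 and 0.71 ± 0.15 at IRF1 (SE, limma, adjusted p = 0.000956, 0.000695 and 0.0165). At GAPDH and ACTB the differences were 0.07 ± 0.12 and 0.15 ± 0.19 (adjusted p = 0.777 and 0.671), which did not pass.

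The start sites whose peak was called with hIFNb in any fit below are shown as RefSeq promoter windows on GRCh38.p14. Each window runs from 250 bases before to 50 bases after the annotated start. These start sites belong to the 3 lipid enzymes ELOVL1, ELOVL6 and SCD and to the synthetases ACSL4 and ACSL5. In the main fit, of 4 group means, only the ELOVL1 start was called. Several ELOVL6 and ACSL4 results below come from peaks away from the start, whose sequences are not shown. Capitals mark GC boxes (GGGCGG or its reverse complement CCGCCC) and CCAAT boxes (CCAAT or ATTGG), searched on both strands. The windows are chr1:43367962-43368261 on the minus strand for ELOVL1, chr4:110198566-110198865 on the minus strand for ELOVL6, chr10:100346983-100347282 on the plus strand for SCD, chrX:109733208-109733507 on the minus strand for ACSL4, and chr10:112375018-112375317 on the plus strand for ACSL5.
ELOVL1: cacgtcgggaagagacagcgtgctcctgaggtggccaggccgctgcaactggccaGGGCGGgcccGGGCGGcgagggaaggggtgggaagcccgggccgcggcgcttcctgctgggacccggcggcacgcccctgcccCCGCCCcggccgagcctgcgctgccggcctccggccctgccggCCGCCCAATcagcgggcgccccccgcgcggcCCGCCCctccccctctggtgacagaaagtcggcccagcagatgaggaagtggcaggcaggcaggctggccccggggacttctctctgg
ELOVL6: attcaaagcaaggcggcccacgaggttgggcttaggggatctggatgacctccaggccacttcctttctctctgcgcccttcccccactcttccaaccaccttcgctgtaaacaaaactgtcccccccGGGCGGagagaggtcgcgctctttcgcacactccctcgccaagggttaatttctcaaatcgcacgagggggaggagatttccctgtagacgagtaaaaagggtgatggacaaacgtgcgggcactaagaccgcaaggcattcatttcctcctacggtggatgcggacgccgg
SCD: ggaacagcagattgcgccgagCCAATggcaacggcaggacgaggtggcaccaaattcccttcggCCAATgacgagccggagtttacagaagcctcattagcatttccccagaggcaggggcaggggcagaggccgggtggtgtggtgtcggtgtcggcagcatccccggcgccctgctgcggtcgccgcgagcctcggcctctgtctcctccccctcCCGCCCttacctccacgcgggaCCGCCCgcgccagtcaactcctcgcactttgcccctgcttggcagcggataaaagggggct
ACSL4: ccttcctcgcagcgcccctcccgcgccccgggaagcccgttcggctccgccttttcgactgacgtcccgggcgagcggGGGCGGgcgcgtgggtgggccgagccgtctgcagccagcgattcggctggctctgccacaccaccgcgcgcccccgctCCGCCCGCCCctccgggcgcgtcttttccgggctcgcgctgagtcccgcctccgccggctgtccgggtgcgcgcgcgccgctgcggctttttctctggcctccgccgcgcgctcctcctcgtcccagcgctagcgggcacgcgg
ACSL5: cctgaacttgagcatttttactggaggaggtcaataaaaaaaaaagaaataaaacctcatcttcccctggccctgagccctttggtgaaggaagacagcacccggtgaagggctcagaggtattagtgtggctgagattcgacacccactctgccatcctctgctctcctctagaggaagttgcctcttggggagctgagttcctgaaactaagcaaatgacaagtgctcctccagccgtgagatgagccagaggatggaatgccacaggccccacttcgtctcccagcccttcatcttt

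The ELOVL1 window held 5 GC boxes and 1 CCAAT box, and that CCAAT box, at position -65 with the start site counted as 0, overlapped a GC box. SCD held 2 CCAAT boxes, at -229 and -186, and 2 GC boxes nearer the start. ELOVL6 held 1 GC box, ACSL4 held 3, of which 2 overlapped each other, and the ACSL5 window, over the first of 2 RefSeq starts, held neither motif. That ACSL5 start, at 112375268, lies inside the gene. The authors' ACSL5 start, from which distances are given here, is at 112374116, and its sequence was not searched. Over the 16 RefSeq windows of 9 of the genes (FASN is not in the table), a GC box was found in 10 windows (8 of 9 genes) and a CCAAT box in 6 (5 of 9 genes), against 44.9% and 34.6% of 34943 promoter windows of the same length. The sterol regulatory element TCACNCCAC was found in 1 window, an alternative ACSL1 start with no peak over it, and in 1.12% of all windows. The STAT site TTCNNNGAA was found in another ACSL1 window without a peak (7.66% of all windows). The E-box CACGTG (7.23% of all windows) and the core of the interferon-stimulated response element (3.57% of all windows) were in none of the 16. A match describes letters in these windows and is not a binding site.

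H3K27ac lay over the start site of 8 of the 10 genes. The strongest per kb was the ACSL5 start, covered by a domain of 47245 bp (chr10:112370578-112417822) that holds most of the gene, with a median of 38.05 score units per kb over the 8 libraries (range 30.4 to 47.5). ELOVL1 followed at 32.0 per kb (range 23.6 to 39.7), in a peak of 20949 bp (chr1:43356589-43377537) that also covers the cell cycle gene CDC20, CDC20-DT, MIR6734 and LOC112268225, so its score is not ELOVL1's alone. These placed at percentiles 97.9 and 94.5 of the 9903 peaks that hold a start site. The other 6 starts had medians of 19.1 (SREBF1), 18.3 (SCD), 18.1 (ELOVL6), 16.6 (ACSL3), 16.4 (ACACA) and 14.6 per kb (ACSL4), close to the 17.6 per kb of the median start-site peak. In this order each gene's range over libraries overlapped that of its neighbour, except between ELOVL1 and SREBF1 (range 12.5 to 19.8).

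ACSL1 and FASN had no peak over the start site. The main ACSL1 start lay in no peak. Scores are given only inside peaks, so this does not show that the mark was absent there. The gene, an acyl-CoA synthetase of liver and fat, had only 2 weak peaks inside it, with mean scores of 11.3 and 13. The weaker, at chr4:184814780-184815535, covers 1 of 5 RefSeq starts and scored 14 and 10 in IRF1-guide clones with hIFNb, 10 and 14 in the same clones untreated, 12 and 10 in control clones with hIFNb, and 10 and 10 untreated. The FASN start lay in the gap between peaks: 1 began 786 bp inside the gene (chr17:82095548-82097450, mean score 26.4), and the other had its nearer edge at -941 bp, upstream of the start, within CCDC57 (chr17:82099177-82112645, mean score 226).

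Across all 38 peaks the widths ran from 414 to 47245 bp and the mean scores from 3.38 to 1785, with a median of 44.7 against 47.4 over all peaks. ELOVL6, a gene of 153357 bp, had 7 peaks, including a peak upstream of the gene centred at -33.9 kb, and ELOVL1 had 1. ACACA, ACSL3, ACSL5 and SCD had 5 each, ACSL4 had 4, and ACSL1, FASN and SREBF1 had 2 each. In 12 of the 38 the mean score was under 20. At the 50 kb limit, the ACSL4 peak just inside (edge at -49305 bp) had a mean score of 3.38, and the nearest outside were a FASN peak at -61.0 kb with 36.8 and an ACSL3 peak 69.9 kb away with 41.1. That FASN peak scored between 23 and 52 in all libraries. The outside ACSL3 peak scored 103 and 94 in control clones with hIFNb against 16 and 15 untreated. In IRF1-guide clones it scored 27 and 28 with hIFNb against 23 and 23 untreated. Both lie beyond the limit and are not among the members.

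**Figure D1:**
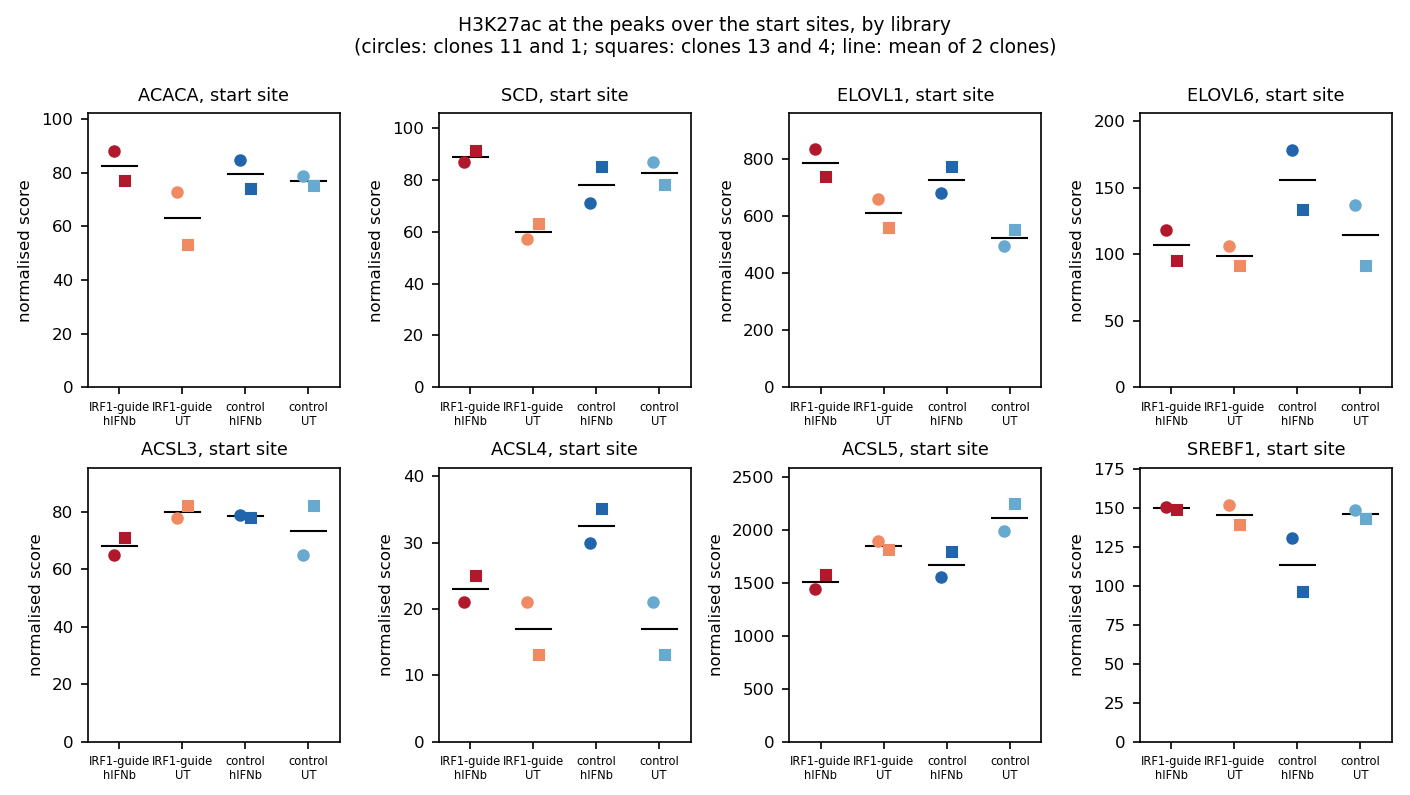
Normalised H3K27ac score (vertical axes, from 0) at the 8 peaks over start sites, in IRF1-guide and control clones with hIFNb and untreated (UT). Each point is 1 library, circles are clones 11 and 1, squares are clones 13 and 4, and lines are means of 2 clones; at ELOVL1 all 4 hIFNb libraries (680 to 832) lie above all 4 untreated ones (494 to 660), and at ACSL5 all 4 (1438 to 1787) lie below (1808 to 2245).

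The comparison of hIFNb with no treatment asks where interferon moved H3K27ac within 2 hours. Averaged over all clones, 4 of the 38 peaks rose and none fell: the ELOVL1 start-site peak, a peak inside ELOVL6, a peak inside ACSL3 and a faint peak upstream of ACSL4. That is 10.5% of the members, against 9.13% of all peaks called in either direction, so the share is near the background; 6.55% of all peaks rose and 2.58% fell. With equal library medians 2 of the 38 rose, at ACSL3 and ACSL4, and 1 fell, at ACSL5, where 5.71% of all peaks rose and 4.46% fell. The median log2 difference was 0.10 over the 38 peaks and -0.00 over all peaks. As deposited, no peak of ACACA, FASN, SCD, ACSL1, ACSL5 or SREBF1 was called.

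The peak over the ELOVL1 start also covers CDC20, and the authors named the start of MIR6734 in it. A change in this peak therefore cannot be assigned to ELOVL1 alone. It scored 832 and 736 in IRF1-guide clones 11 and 13 with hIFNb against 660 and 556 in the same clones untreated. Control clones 1 and 4 scored 680 and 769 with hIFNb against 494 and 550 untreated. All 4 treated libraries were above all 4 untreated ones, and the log2 score was higher by 0.33 in clone 11, 0.40 in clone 13, 0.46 in clone 1 and 0.48 in clone 4. The fitted rise was 0.42 ± 0.11 (SE, limma, adjusted p = 0.0438; 3.83e-06 in the fit with the clone as a block, in which each clone serves as its own control). The call was lost without any 1 of the 8 libraries, with adjusted p between 0.059 without the untreated library of IRF1-guide clone 11 and 0.139 without the hIFNb library of that clone, and when the library medians were made equal (0.34, adjusted p = 0.0877). It was also lost without the trend term (adjusted p = 0.159).

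The ACSL3 peak centred 57.9 kb inside the gene (chr2:222916652-222921219), where the start of the antisense gene ACSL3-AS1 also lies, scored 50 and 59 in IRF1-guide clones with hIFNb against 30 and 23 untreated, and 37 and 46 in control clones with hIFNb against 18 and 23 untreated. Again the treated libraries were all above the untreated ones. ACSL3 encodes a synthetase of the endoplasmic reticulum and lipid droplets, and the log2 score of this peak rose by 1.00 ± 0.21 (SE; adjusted p = 0.0178 in limma). The call was lost without the hIFNb library of IRF1-guide clone 13 (adjusted p = 0.0599), the untreated library of that clone (0.0531), the hIFNb library of control clone 4 (0.061) or the untreated library of control clone 1 (0.0671). At the ACSL3 start itself the scores were 65 and 71 in IRF1-guide clones with hIFNb against 78 and 82 untreated, and 79 and 78 in control clones with hIFNb against 65 and 82 untreated. The difference with hIFNb there was -0.06 ± 0.16 (adjusted p = 0.837).

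ELOVL6 elongates the palmitate that fatty acid synthase releases. Its peak centred 109 kb inside the gene (chr4:110084697-110094087) scored 126 and 103 in IRF1-guide clones with hIFNb against 82 and 65 untreated, and 194 and 231 in control clones with hIFNb against 135 and 154 untreated. Each clone rose, by 0.52 to 0.66, and the fitted rise was 0.59 ± 0.16 (SE, limma, adjusted p = 0.0423; 8.53e-05 with the clone as a block). The call was lost without any 1 library (adjusted p between 0.0557 without the untreated library of IRF1-guide clone 11 and 0.138 without its hIFNb library), with equal library medians (0.0618) and without the trend term (0.0882). The ELOVL6 start lies in a peak (chr4:110193730-110199932) in which the authors named the start of LOC107986303. That peak scored 118 and 95 in IRF1-guide clones with hIFNb against 106 and 91 untreated. Control clones scored 178 and 133 with hIFNb against 137 and 91 untreated. All 4 clones were higher with hIFNb there, but the clones' levels overlap, and the difference of 0.28 ± 0.19 did not pass (adjusted p = 0.367).

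A faint peak 49.8 kb upstream of ACSL4 (chrX:109782562-109783552) was nearly empty except in control clones with hIFNb. It scored 1 and 1 in IRF1-guide clones with hIFNb against 0 and 0 untreated, and 14 and 10 in control clones with hIFNb against 0 and 1 untreated. The difference over all clones was 2.09 ± 0.55 on the log2(score + 1) scale (limma, adjusted p = 0.0401). It depends on the constant added, being 0.70 with 8 in place of 1, and it was not called without any 1 library (adjusted p from 0.06 without the untreated library of control clone 4 to 0.136 without the hIFNb library of control clone 1).

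With the clone as a block 11 of the 38 peaks were called, 8 higher and 3 lower (28.9%, against 32.4% of all peaks, 16.6% higher and 15.9% lower). The 4 peaks above were among them. The other rises were at ACSL4 22.2 kb inside the gene and at its start, at ELOVL6 78.3 kb inside the gene, and at a weak ACACA peak 14.3 kb inside the gene that also overlaps C17orf78. The ACSL4 rise at 22.2 kb is an average of opposite movements. Control clone 1 rose there by 1.11 (log2) and control clone 4 by 0.95. IRF1-guide clone 11 fell slightly (-0.19), as did IRF1-guide clone 13 (-0.14). That ACACA peak scored 6 and 9 in IRF1-guide clones with hIFNb against 2 and 6 untreated, and 17 and 22 in control clones with hIFNb against 6 and 7 untreated. It rose by 1.16 ± 0.37 with the block (adjusted p = 0.0169) and was not called without it (adjusted p = 0.084).

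The 3 falls with the block were at wide peaks of ACSL5, SCD and ELOVL6. Over the ACSL5 start and gene body, scores were 1438 and 1569 in IRF1-guide clones with hIFNb against 1893 and 1808 untreated, and 1553 and 1787 in control clones with hIFNb against 1984 and 2245 untreated. All 4 treated libraries were below all 4 untreated ones. The fall of -0.32 ± 0.05 passed with the block (SE, limma, adjusted p = 5.22e-06) and missed without it (adjusted p = 0.0593). Without the block it was called when the library medians were made equal (adjusted p = 0.0291), and in the other alternatives it ran from 0.0153 with a block by the R1 or R2 ending of the column names to 0.245 without the trend term. ACSL5, a synthetase of mitochondria and endoplasmic reticulum known from the intestine, was the only member start site lower with hIFNb in each of the 4 clones.

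Downstream of SCD, a domain of 19320 bp that runs from the end of the gene over the noncoding gene OLMALINC (chr10:100358925-100378244) scored 606 and 681 in IRF1-guide clones with hIFNb against 729 and 705 untreated, and 590 and 526 in control clones with hIFNb against 666 and 753 untreated. Its difference was -0.25 ± 0.07 with the block (adjusted p = 0.00398) and was not called without it (adjusted p = 0.166). Inside ELOVL6, the peak centred 35.8 kb from the start (chr4:110156329-110169233) scored 139 and 128 in IRF1-guide clones with hIFNb against 164 and 169 untreated, and 176 and 152 in control clones with hIFNb against 234 and 194 untreated. It was lower with hIFNb in every clone, by -0.35 ± 0.10 with the block (adjusted p = 0.00602; 0.141 without it), while the peaks 78.3 and 109 kb inside the same gene were higher in every clone.

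Over all 38 peaks, 9 were higher with hIFNb in each of the 4 clones and 5 were lower (23.7% and 13.2%), where 19.9% and 20.4% of all peaks were. Only ELOVL1 and ACSL3 at 57.9 kb had all 4 treated libraries above all 4 untreated ones, 5.26% of the members against 7.22% of all peaks, and only the ACSL5 domain had them all below (2.63% against 5.15%). These shares are near those of the whole table. The genotypes moved in opposite directions at 4 peaks: 2 were higher with hIFNb in both control clones and lower in both IRF1-guide clones (5.26%, against 3.97% of all peaks), and 2 the reverse (5.26%, against 3.8%).

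**Figure D2:**
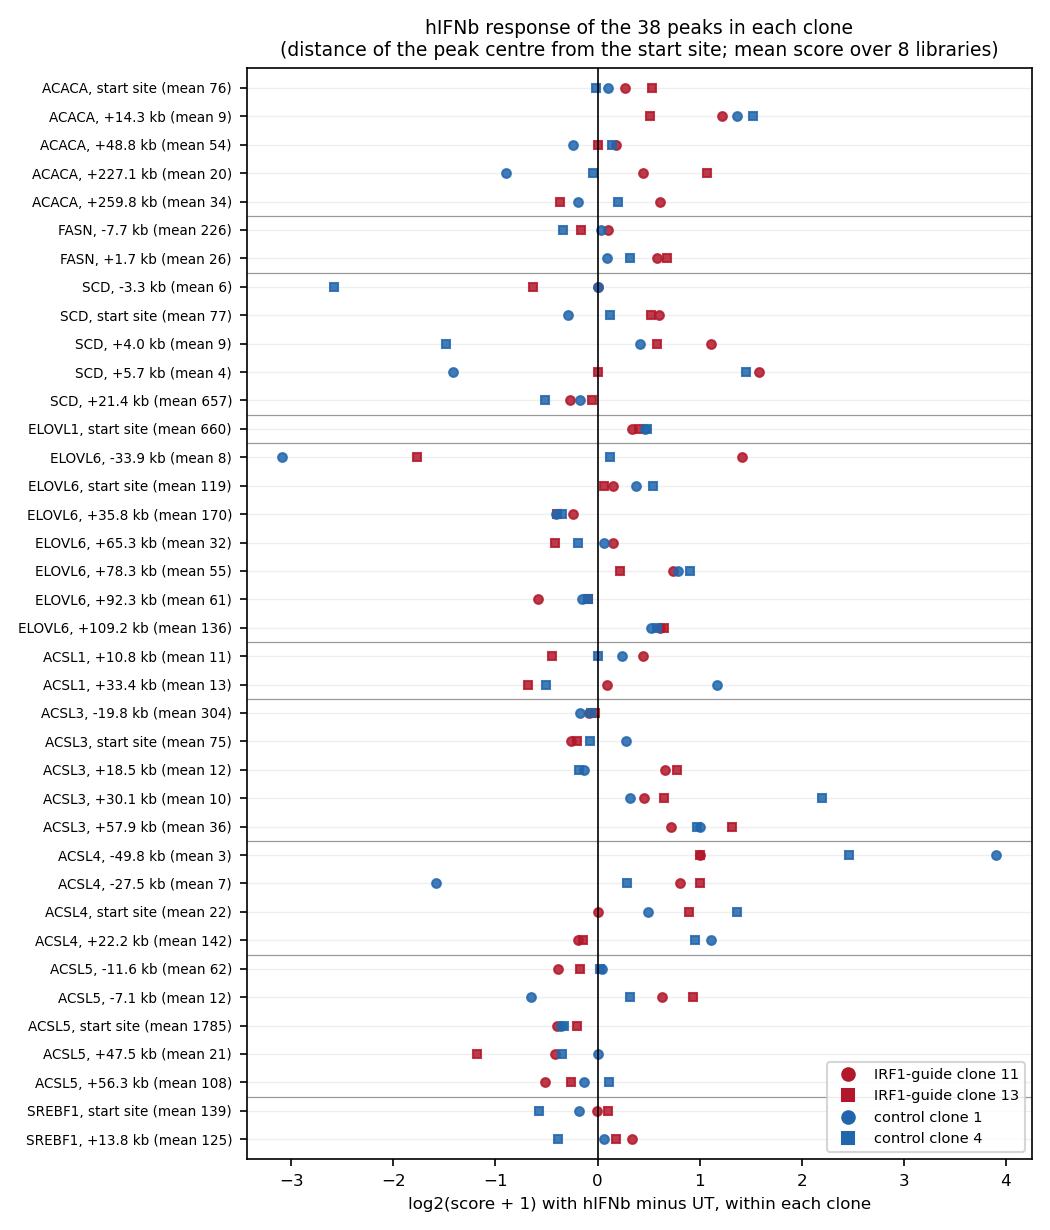
Difference in log2(score + 1) between the hIFNb and the untreated library of each clone (horizontal axis) for the 38 peaks, labelled by gene, distance of the peak centre from the start site and mean score. Red points are IRF1-guide clones 11 and 13 and blue points control clones 1 and 4; the 4 clones lie together at ELOVL1 (0.33 to 0.48) and at ELOVL6 109 kb inside the gene (0.52 to 0.66), and the colours separate at ACSL4 22.2 kb inside the gene.

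Within control clones alone, 2 of 38 peaks were called, both at ACSL4 and both higher with hIFNb (5.26%, against 4.74% of all peaks called and 4.07% higher). ACSL4 encodes the synthetase that prefers arachidonic acid and is known for its part in ferroptosis. Its gene-body peak of 12969 bp, centred 22.2 kb from the start (chrX:109704610-109717578), scored 234 and 260 in control clones 1 and 4 with hIFNb against 108 and 134 in the same clones untreated. The log2 score rose by 1.03 ± 0.21 (SE; limma adjusted p = 0.0219, or 7.77e-06 with the clone as a block). The call was lost without the hIFNb library of control clone 1 (adjusted p = 0.112) or of control clone 4 (0.123), without the untreated library of control clone 1 (0.16) or of control clone 4 (0.063), and without the trend term (0.0589). The faint upstream peak was called at 3.18 ± 0.77 (adjusted p = 0.044), and its call was lost without any 1 library other than the untreated library of IRF1-guide clone 13 (adjusted p = 0.0493 there, 0.0506 to 0.239 elsewhere).

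The block called 11 of 38 in control clones, 8 higher and 3 lower, where 24.6% of all peaks were called, 13.4% higher and 11.3% lower. The ELOVL6 start was among them, at 0.46 ± 0.16 (adjusted p = 0.0319), with scores of 178 and 133 in control clones with hIFNb against 137 and 91 untreated. The ACSL4 start (chrX:109732454-109733892), shared with LOC105373311, scored 21 and 25 in IRF1-guide clones with hIFNb against 21 and 13 untreated, and 30 and 35 in control clones with hIFNb against 21 and 13 untreated. Its rise over all clones was 0.69 ± 0.25 with the block (adjusted p = 0.0356) and was not called without it (adjusted p = 0.137).

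Within IRF1-guide clones limma called none of the 38 peaks (1.22% of all peaks were called), with 5 members (13.2%) at an unadjusted p under 0.05, against 12.7% of all peaks. With the clone as a block 5 were called, 4 higher and 1 lower, where 14.1% of all peaks were called, 7.44% higher and 6.64% lower. ELOVL1 was higher by 0.37 ± 0.08 (adjusted p = 0.0037), ELOVL6 at 109 kb by 0.63 ± 0.15 (0.00471) and ACSL3 at 57.9 kb by 1.02 ± 0.28 (0.0134). ACSL5 was lower by -0.30 ± 0.07 (0.00247).

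The remaining block call in these clones was the SCD start (chr10:100345423-100349887), the promoter of the desaturase. It scored 87 and 91 in IRF1-guide clones with hIFNb against 57 and 63 in the same clones untreated, and 71 and 85 in control clones with hIFNb against 87 and 78 untreated. The IRF1-guide clones moved by 0.56 ± 0.19 (adjusted p = 0.0458 with the block, 0.338 without it), and the control clones by -0.08 ± 0.19 (0.798 with the block). The difference between these responses was 0.65 ± 0.27 and did not pass (adjusted p = 0.31 with the block).

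The ACACA, ACSL3 and SREBF1 start sites had no call in the group-means, block or clone-means fit. The ACACA start (chr17:37405047-37409681), shared with TADA2A, scored 88 and 77 in IRF1-guide clones with hIFNb against 73 and 53 untreated, and 85 and 74 in control clones with hIFNb against 79 and 75 untreated. Its difference with hIFNb over all clones was 0.22 ± 0.17 (adjusted p = 0.456). The SREBF1 start (chr17:17834477-17842137) scored 151 and 149 in IRF1-guide clones with hIFNb against 152 and 139 untreated, and 131 and 96 in control clones with hIFNb against 149 and 143 untreated. Its lowest library was control clone 4 with hIFNb, and the difference with hIFNb was -0.17 ± 0.15 (adjusted p = 0.518). The other SREBF1 peak, 13.8 kb inside the gene, scored between 96 and 141 in all 8 libraries. FASN's peak inside the gene scored 32 and 23 in IRF1-guide clones with hIFNb against 21 and 14 untreated, and 31 and 34 in control clones with hIFNb against 29 and 27 untreated. It was higher with hIFNb in every clone, by 0.42 ± 0.24, without passing (adjusted p = 0.295).

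Whether the response to hIFNb differed between genotypes was tested as the difference of responses, IRF1-guide minus control. The group-means fit called 0 of the 31961 peaks and so none of the members (0.0%), and 1 of the 38 (2.63%, against 3.94% of all peaks) had an unadjusted p under 0.05, the ACSL4 peak 22.2 kb inside the gene. With the clone as a block 0.763% of all peaks were called, and that ACSL4 peak was the only member among them. It scored 99 and 88 in IRF1-guide clones 11 and 13 with hIFNb against 113 and 97 untreated, while in control clones 1 and 4 it scored 234 and 260 with hIFNb against 108 and 134 untreated. The IRF1-guide clones thus moved by -0.19 and -0.14 and the control clones by 1.11 and 0.95. The difference was -1.19 ± 0.21 with the block (SE, limma, adjusted p = 0.00476) and -1.19 ± 0.30 without it (adjusted p = 1.0).

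**Figure D3:**
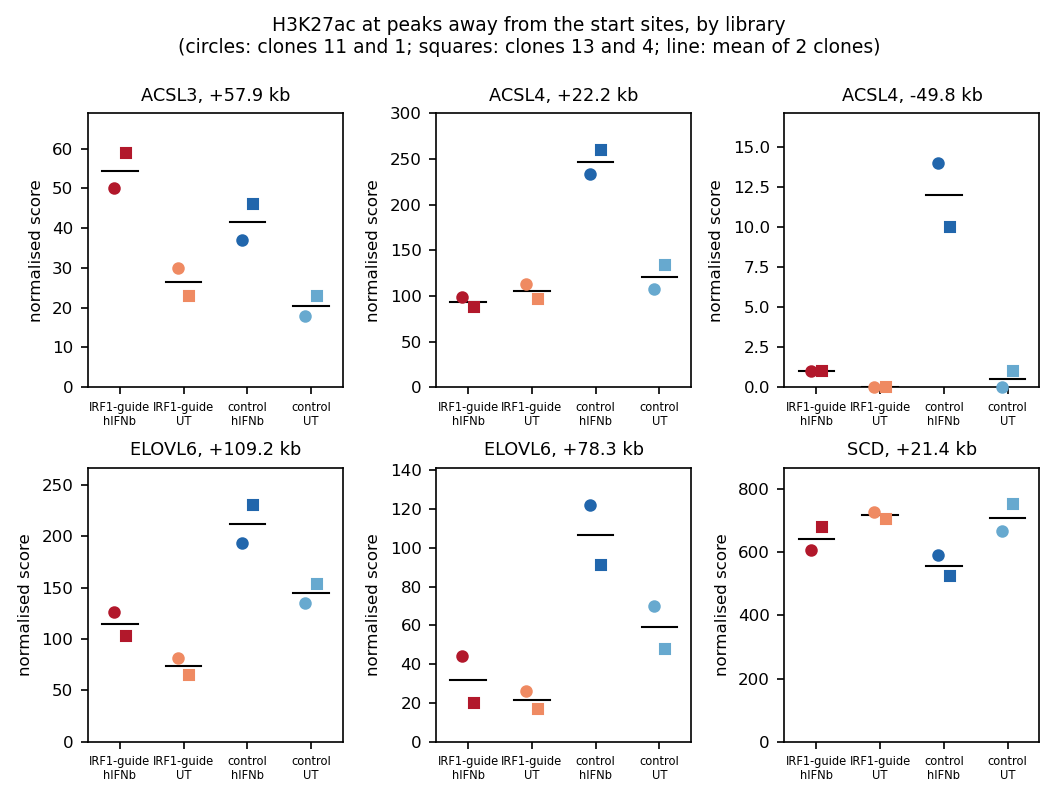
Normalised H3K27ac score (vertical axes, from 0) at 6 peaks away from start sites, by group, with each point 1 library (circles clones 11 and 1, squares clones 13 and 4) and lines the means of 2 clones. At ACSL4 22.2 kb inside the gene the control clones with hIFNb (234 and 260) stand above the other 6 libraries (88 to 134), and at ELOVL6 78.3 and 109 kb inside the gene all 4 IRF1-guide libraries lie below all 4 control libraries.

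IRF1-guide clones were then compared with control clones at matched treatment, in the same libraries as above, so these comparisons are not independent of the earlier ones. With hIFNb, 2 of 38 peaks were called and both were lower in IRF1-guide clones (5.26%, against 2.43% of all peaks called and 2.19% lower). The ACSL4 peak 22.2 kb inside the gene was lower by -1.39 ± 0.21 on the log2 scale (limma, adjusted p = 0.0113; 0.00577 with the block), at 99 and 88 in IRF1-guide clones against 234 and 260 in control clones. The call was lost without the hIFNb library of IRF1-guide clone 11 (adjusted p = 0.0514), IRF1-guide clone 13 (0.0755), control clone 1 (0.113) or control clone 4 (0.0901).

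The ELOVL6 peak 78.3 kb inside the gene (chr4:110118055-110122532), which also holds the pseudogene RN7SL275P, scored 44 and 20 in IRF1-guide clones with hIFNb against 122 and 91 in control clones with hIFNb. Untreated, it scored 26 and 17 in IRF1-guide clones against 70 and 48 in control clones. It was lower by -1.79 ± 0.40 with hIFNb (limma, adjusted p = 0.0449; 0.0194 with the block). The call was lost without the hIFNb library of IRF1-guide clone 13 (0.285), either hIFNb library of the control clones (0.245 without clone 1, 0.141 without clone 4) or either untreated library of the control clones (0.062 without clone 1, 0.0591 without clone 4). It was also lost among peaks with a mean score of at least 20 (0.0527), with equal library medians (0.0609) and without the trend term (0.0893).

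The block called 1 more member with hIFNb, the ELOVL6 peak 109 kb inside the gene, at 126 and 103 in IRF1-guide clones against 194 and 231 in control clones. Its difference was -0.89 ± 0.22 (adjusted p = 0.0466 with the block, 0.0689 without it), and 3.09% of all peaks were called in that fit, 2.64% lower.

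Without treatment limma called none of the members and 0.0% of all peaks, and 4 of 38 members (10.5%, against 12.0% of all peaks) had an unadjusted p under 0.05; with the clone as a block it called none of the members and 0.213% of all peaks. The lowest p among members was at ELOVL6, where the peak 109 kb inside the gene scored 82 and 65 in IRF1-guide clones against 135 and 154 in control clones (-0.97 ± 0.22, adjusted p = 0.143). At 78.3 kb the untreated difference was -1.42 ± 0.40 (adjusted p = 0.213).

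Counting each clone as 1 value, the mean of its 2 libraries, limma again called no member, against 0.516% of all peaks, and 6 of 38 (15.8%, against 14.7% of all peaks) had an unadjusted p under 0.05. The ELOVL6 peak at 78.3 kb differed by -1.61 ± 0.34 (adjusted p = 0.0762), that at 109 kb by -0.93 ± 0.22 (0.0977) and the ACSL4 peak at 22.2 kb by -0.80 ± 0.21 (0.129). Over all members the median difference of clone means was -0.24, against -0.02 over all peaks. Above 0 were 11 of 38 members (28.9%), against 47.8% of all peaks. Every peak of ELOVL6 (7), ACACA (5), ACSL4 (4) and FASN (2) was below 0. Peaks of a gene are not independent, so this share is not a result about the list as a whole. The clone-means fit sets the genotypes against the spread between 2 clones of each.

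At 3 of the 38 peaks, all inside ELOVL6 at 65.3, 78.3 and 109 kb, the 4 IRF1-guide libraries were all below the 4 control libraries (7.89%, against 5.08% of all peaks). The peak at 65.3 kb scored 29 and 17 in IRF1-guide clones with hIFNb against 47 and 34 in control clones with hIFNb, and 26 and 23 in IRF1-guide clones untreated against 45 and 39 in control clones untreated. The reverse held at 1 faint peak centred at -3.31 kb from the SCD start (chr10:100343685-100344166), which scored 7 and 10 in IRF1-guide clones with hIFNb against 2 and 0 in control clones with hIFNb, and 7 and 16 untreated against 2 and 5 (2.63%, against 3.79% of all peaks). Neither peak was called in the group-means, block or clone-means fit.

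**Figure D4:**
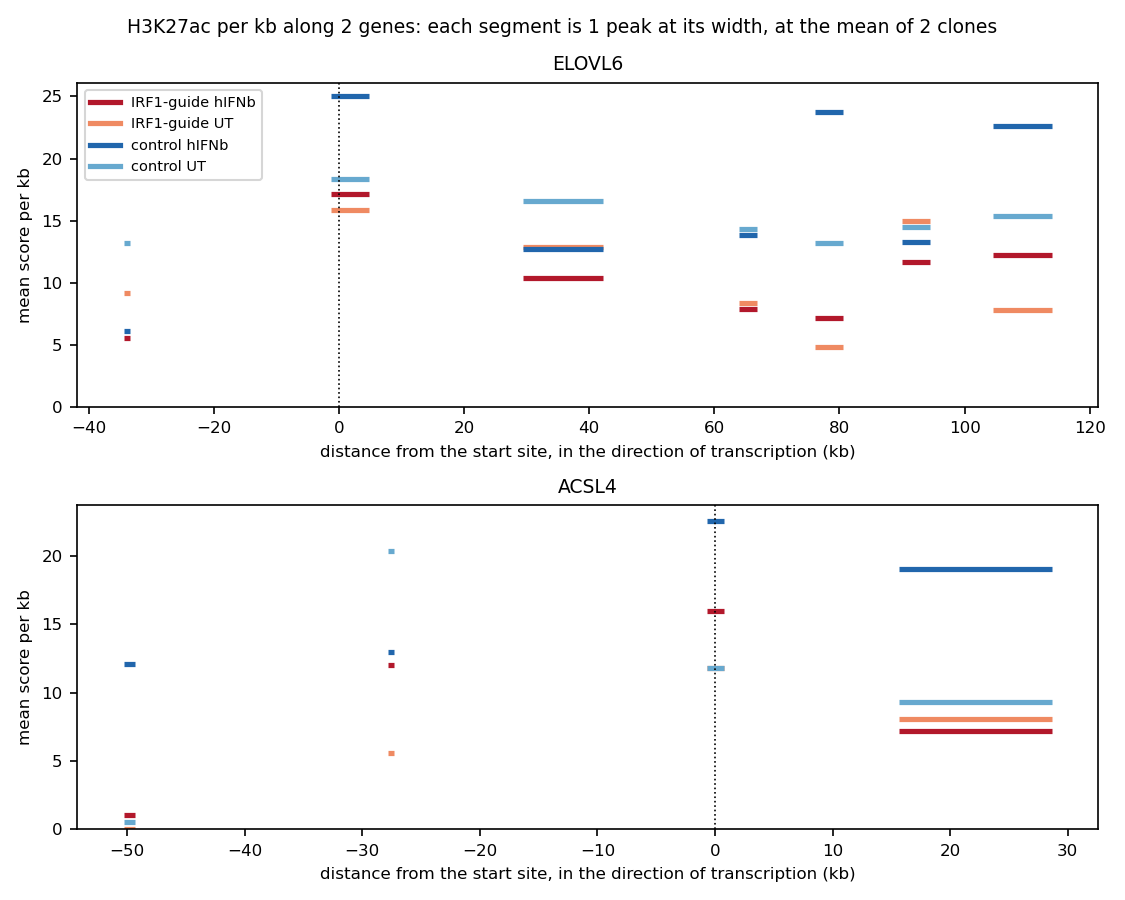
Mean score per kb (vertical axes) of each peak linked to ELOVL6 and ACSL4 against its distance from the start site in the direction of transcription (horizontal axes, kb); each segment is 1 peak drawn at its width at the mean of 2 clones, with colours for the 4 groups. Control clones with hIFNb stand highest at ELOVL6 78.3 and 109 kb and at ACSL4 22.2 kb inside the gene, and lie between the other groups at ELOVL6 65.3 kb; both untreated groups coincide at the ACSL4 start.

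The members of highest score without a call were upstream of ACSL3 and FASN. The ACSL3 peak, centred at -19.8 kb (chr2:222833333-222849148), scored 282 and 258 in IRF1-guide clones with hIFNb against 299 and 263 untreated, and 269 and 369 in control clones with hIFNb against 303 and 387 untreated. Clone 4 was above clone 1 in both treatments there, and the difference with hIFNb was -0.09 ± 0.15 (adjusted p = 0.743). The FASN peak upstream of the start, inside CCDC57, scored 256 and 151 in IRF1-guide clones with hIFNb against 238 and 169 untreated, and 288 and 186 in control clones with hIFNb against 282 and 235 untreated. Clones 11 and 1 were above clones 13 and 4 at that peak in both treatments, and the difference with hIFNb was -0.09 ± 0.21 (adjusted p = 0.823). The ACACA peak 48.8 kb inside the gene, over an alternative RefSeq start, scored between 41 and 65 in all 8 libraries.

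At the far end of ACSL5, a peak centred 56.3 kb from the start that also overlaps ZDHHC6 (chr10:112424535-112436383) scored 83 and 124 in IRF1-guide clones with hIFNb against 119 and 149 untreated, and 69 and 129 in control clones with hIFNb against 76 and 119 untreated. Clones 13 and 4 were above clones 11 and 1 in both treatments, and the difference with hIFNb was -0.20 ± 0.24 (adjusted p = 0.642). The stronger ACSL1 peak, 33.4 kb inside the gene (chr4:184792057-184793107), scored 15 and 14 in IRF1-guide clones with hIFNb against 14 and 23 untreated, and 8 and 11 in control clones with hIFNb against 3 and 16 untreated. Its difference with hIFNb was 0.02 ± 0.44 (adjusted p = 0.983), and -0.06 with equal library medians.

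The peak over the ELOVL1 start, shared with CDC20 and MIR6734, was compared with other start-site peaks. The one most like it over the 8 libraries belonged to ZNRF2P2, a transcribed pseudogene, with a Pearson r of 0.974 between log2 scores. SNX25, a sorting nexin gene, and SWI5, a gene of recombination repair, followed at 0.972 and 0.971. The likeness was computed over 9902 other start-site peaks, 81 of which had an r over 0.9. It rests on 8 libraries with and without hIFNb, so start sites that move alike with treatment have a high r together. The r does not show that the genes are linked.

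Of 43 other genes of fatty acid and glycerolipid synthesis and its control, 39 had peaks by the same linking rule, 89 in all. With hIFNb over all clones 4 of the 89 rose and none fell (4.49%, against 9.13% of all peaks called). With the clone as a block 16 were called, 11 higher and 5 lower (18.0%, against 32.4%). A peak linked to ELOVL3, an elongase gene, lay upstream of it and overlapped no gene (chr10:102186364-102196305). It scored 70 and 36 in IRF1-guide clones with hIFNb against 7 and 16 untreated, and 235 and 214 in control clones with hIFNb against 24 and 13 untreated, a rise of 2.86 ± 0.32 (limma, adjusted p = 0.00051).

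A peak of ELOVL7, another elongase gene, scored 13 and 15 in IRF1-guide clones with hIFNb against 3 and 0 untreated, and 24 and 32 in control clones with hIFNb against 5 and 2 untreated, a rise of 2.83 ± 0.48 (adjusted p = 0.00543). LPIN1, which encodes a phosphatidate phosphatase, rose by 0.93 ± 0.25 (adjusted p = 0.0456). MLX, which encodes the partner of the carbohydrate-responsive factor ChREBP, rose by 0.55 ± 0.11 (adjusted p = 0.015) in a peak that also covers COASY and HSD17B1. At LPIN1 the IRF1-guide clones scored 31 and 32 with hIFNb against 26 and 17 untreated, and the control clones 172 and 88 with hIFNb against 56 and 43 untreated.

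With hIFNb, 3 of the 89 peaks were lower in IRF1-guide than in control clones (3.37%, against 2.19% of all peaks lower). They were at LPIN1 (-1.93, adjusted p = 0.0232), at ELOVL3 (-2.14, 0.0369) and at another ELOVL7 peak (-2.15, 0.0192). That ELOVL7 peak scored 45 and 34 in IRF1-guide clones with hIFNb against 216 and 145 in control clones with hIFNb. With the block 4 of the 89 were called, 3 lower and 1 higher in IRF1-guide clones (4.49%, against 3.09%). In control clones alone 2 of the 89 rose, at ELOVL3 and ELOVL7 (2.25%, against 4.07% of all peaks higher), and 16 were called with the block (18.0%, against 24.6%). In IRF1-guide clones alone limma called none of the 89, with 7 at an unadjusted p under 0.05 (7.87%, against 12.7% of all peaks), and the block called 7 (7.87%, against 14.1%). Between genotypes without treatment neither fit called any, with 12 at an unadjusted p under 0.05 in limma without the block (13.5%, against 12.0%). On clone means none was called and 12 had an unadjusted p under 0.05 (13.5%, against 14.7%). For the difference of responses neither fit called any, and 3 had an unadjusted p under 0.05 without the block (3.37%, against 3.94%).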

How the data were processed

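H3K27ac ChIP-seq of 8 libraries was aligned with Bowtie2 to GRCh38 (hg38), per the submitters' processing notes; how peaks were called, joined, counted and scaled is not given in the sources used here. Each deposited value is a score, which the authors normalised and rounded to whole numbers, so no count model was used and the read depth behind a score is unknown. Peak positions and start-site distances came from that table. Gene bodies and promoter windows came from RefSeq on GRCh38.p14.

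Scores were analysed as log2(score + 1) in limma 3.58.1 (R 4.3.3) with a mean-variance trend, fitted on all 31961 peaks as 4 group means, with Benjamini-Hochberg adjustment over all of them; calls were made below an adjusted p of 0.05. A filter keeping peaks with a score above 0 in 2 or more libraries removed 0 of them, so all 38 members were tested. The fitting steps were tested on simulated data. The clone block pairs the libraries of the same clonal line, whose deviations from group means correlated at 0.437 in control and 0.392 in IRF1-guide clones; for genotypes it was a random effect. Replicates are clones, 2 a group. In the group-means fit, p-values set a difference against the spread between clones and treat the libraries of a clone as independent. For hIFNb with the block, they set it against how far the clones' responses disagree, with the spread between clone levels removed. A score cannot tell a change in the share of cells carrying the mark from a change per cell, and gene expression was not analysed here. The labels name no batch per library.

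Named singly were each start-site peak, each peak called in any fit and each gene's strongest other peak; other peaks given singly (those whose groups did not overlap or moved apart, and the FASN and ACSL1 peaks nearest the start) were chosen after their values were seen. The members and lists were chosen with earlier results of these data known. Alternatives were each library left out, 8 added in place of 1, a mean score of at least 20, equal library medians, no trend and, added after seeing the data, a block by the column ending.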

Additional observations from a re-analysis of the deposited data

Results flagged for a closer look

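The response to hIFNb at the ACSL4 peak 22.2 kb inside the gene differed between genotypes by -1.19 (log2, IRF1-guide minus control) in the test of that difference with the clone as a block (limma, adjusted p = 0.00476), and not in the fit without the block (adjusted p = 1.0). At 3 other peaks both control clones moved one way and both IRF1-guide clones the other. The differences of responses there, IRF1-guide minus control, were 0.88 at ACSL3 18.5 kb inside the gene (mean score 11.9), -0.31 at ACSL5 centred at -11.6 kb from the start (mean score 61.8) and 1.23 at ACACA 227 kb inside the gene (mean score 20.5). Their adjusted p with the block was 0.606, 0.719 and 0.319, so none of the 3 passed the test of the difference. Opposite movement of the genotypes was seen at 2 of 38 peaks in each direction (5.26%), against 3.97% of all peaks for higher in control and lower in IRF1-guide clones and 3.8% for the reverse.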

How the results depend on the processing

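The 31 member differences called with or without the clone block were picked by these same data, and several peaks recur among them. None changed sign under any alternative, an outcome that this choice favours. Uncalled ones near 0 did: for hIFNb over all clones 5 of 38 changed sign with equal library medians, at ACSL1 (33.4 and 10.8 kb inside the gene), ACACA (48.8 and 260 kb) and SREBF1 (13.8 kb), and over the comparisons run 0 to 11 of 38 did when 1 library or clone was left out. With the clone as a block the called members numbered 11 for hIFNb over all clones, 11 in control clones, 5 in IRF1-guide clones and 1 for the difference of responses, against 4, 2, 0 and 0 without it. For hIFNb over all clones 2 were called without the trend; in control clones 1 was called without the trend and 1 among peaks with a mean score of at least 20. For IRF1-guide against control with hIFNb (2 called), 1 was called with equal library medians, 1 with a mean score of at least 20 and 4 with 8 added in place of 1. Leaving out 1 library gave 0 to 1 called over all clones, 0 to 2 in control clones, 0 to 2 for genotypes with hIFNb, and 0 to 0 elsewhere; an arm left with 1 library was assumed to vary like the other groups.

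What the column endings R1 and R2 stand for is not stated. R1 goes with clones 11 and 1 and R2 with clones 13 and 4 in both treatments. Deviations of clones 11 and 1 correlated at 0.091 untreated and 0.0988 with hIFNb. A batch shared by an ending was not tested and cannot be told apart from clone. As a replicate block the endings gave 7 called over all clones and 1 for genotypes untreated. Equal library medians shifted the median difference of all peaks by -0.08 over all clones and moved the share of all calls that were higher to 56.1%, against 71.8% as deposited.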
